A study of Mus musculus with 20 samples.

Results

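Ribosome footprints were compared between livers of mice treated for 13 days with siRNA against Eif3m, which encodes subunit m of translation initiation factor eIF3, and livers of mice treated with control siRNA. The libraries were chosen by their labels alone: 2 footprint libraries from Eif3m siRNA livers and 2 from control livers, 4 of the 20 libraries of the series. The study knocked down Eif3m in vivo and profiled RNA and footprints of the same livers after 9 and after 13 days. All animals were FVB/N mice, injected at 6 to 8 weeks of age through the tail vein with lipid nanoparticles carrying 0.5 mg/kg siRNA, 1 injection in 5 days. Controls received a scrambled luciferase siRNA in the same particles, so that injection and carrier were shared by both groups. The 4 livers carry different animal codes in the labels, and each library is therefore 1 animal: C1 and C2 denote control replicates 1 and 2, and E1 and E2 denote Eif3m siRNA replicates 1 and 2. Whole liver was ground, so that hepatocytes, endothelial cells, macrophages and stellate cells were read together, and fewer cells of a type cannot be told apart from fewer footprints per cell.

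eIF3 is the large multisubunit scaffold that binds the small ribosomal subunit and brings it to the mRNA during initiation. A ribosome protects a short stretch of mRNA from nuclease, and counting these protected fragments per gene gives the ribosomes engaged on that gene's mRNA, which depends both on how much mRNA there is and on how densely it is loaded. Liver cells devote a large share of their translation to albumin and other plasma proteins, beside the enzymes of lipid, bile acid, drug and nitrogen metabolism.

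The control libraries held 1.97 M and 2.12 M assigned footprints (M, 1000000 counts) and the Eif3m siRNA libraries 1.64 M and 6.52 M, so that E2 was as deep as the day 9 footprint libraries (4.5 M to 7.69 M) and the others were shallower. Counts of 22838 genes were above 0 in at least 1 library and those of 12718 genes in all 4. Log levels of the replicates correlated across genes with r = 0.946 for the controls and 0.965 for Eif3m siRNA, a description since genes are not independent. Levels are given as counts per 1000000 of the normalised library total (CPM), and changes as log2 ratios of Eif3m siRNA to control with the standard error (SE) of the fit. A gene was called where edgeR's quasi-likelihood test gave a Benjamini-Hochberg adjusted p below 0.05 over the 12213 genes tested. All adjusted p-values below come from that test. With 2 animals against 2, an exact permutation test of a single gene cannot go below p = 0.33, so every call rests on the spread that the fit pools over genes and over the day 9 libraries.

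Footprints on Eif3m itself fell from 76.6 and 78.8 CPM in C1 and C2 to 5.73 and 2.46 CPM in E1 and E2, a log2 change of -4.58 (SE 0.26, adjusted p = 1.7e-09). The groups did not overlap, and the fall was called without each of the 4 libraries in turn. Several other subunits of the complex moved the opposite way: of the 14 eIF3 genes tested, 6 were called higher and Eif3m alone lower, against 6.12% of all tested genes called higher and 6.26% lower (12.4% either way). Eif3i, a WD-repeat subunit, rose from 29 and 37.3 to 91.6 and 84.9 CPM, a log2 change of 1.4 (SE 0.20, adjusted p = 0.00011). Eif3g, an RNA-binding subunit next to it in the complex, rose from 77.8 and 67.1 to 151 and 169 CPM, a change of 1.15 (SE 0.16, adjusted p = 6.9e-05). For both genes the higher control library stayed well below the lower Eif3m siRNA library. Eif3c, one of the core subunits, rose from 223 and 231 to 410.0 and 369.9 CPM with a change of 0.78 (adjusted p = 0.0028), and Eif3d, which can contact the cap, from 98.6 and 103 to 164 and 166 CPM with 0.71 (adjusted p = 0.0031). The scaffold subunits Eif3a and Eif3b rose by 0.55 and 0.52 on the log2 scale (adjusted p = 0.019 and 0.031). Not called were Eif3h at 0.43, Eif3f at 0.41, Eif3e at 0.37, Eif3l at 0.24 and Eif3k at 0.18, whose adjusted p ran from 0.096 to 0.59. Eif3f and Eif3h are the partners that form a module with subunit m in the complex, and their control and Eif3m siRNA values were 58 and 92.2 against 91.6 and 107 CPM and 92.8 and 103 against 132 and 132 CPM. Eif3j1 and Eif3j2 hold identical values (0.46), since reads of these near-identical copies cannot be assigned to either. When libraries were scaled by their totals in place of the normalised totals, 10 higher and 1 lower subunits were called. The count of called subunits was 4, 4, 5 and 4 higher without C1, C2, E1 and E2 in turn. Eif3b lost the call without C1 or C2 or E2 (adjusted p of 0.12 to 0.38). Eif3a lost the call without any 1 of the 4 libraries (adjusted p of 0.063 to 0.14).

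Across all genes with footprints, 1513 of 12213 tested genes (12.4%) were called, 748 higher and 765 lower with Eif3m siRNA. At least 2-fold changes made up 404 of the higher and 356 of the lower calls, and at least 4-fold changes 57 and 68. In 1512 of the 1513 the CPM of the groups did not overlap. That follows largely from the call itself and is no separate support, and it was not counted over all tested genes. An unadjusted p below 0.05 was reached by 3084 genes where 611 are given by chance, and the median log2 change of all tested genes was 0.02. The number changed with the library left out: the fit called 697 genes without C1, 747 without C2, 1046 without E1 and 429 without E2, the deepest library. Of the 178 called genes that the naming rule gave, 71 were called without each of the 4 libraries in turn. A gene named below is one of these unless its adjusted p without a library is printed, and counts without a library are in the order C1, C2, E1, E2. When plain library totals replaced the trimmed mean normalisation (TMM), the median of all genes moved from 0.02 to 0.34 and 85.1% of 2358 calls were higher, against 49.4% of the calls on the TMM scale. Directions below are relative to the TMM scale, the counts of a list with library totals are given in its paragraph, and a called gene that lost its call with library totals is said to have done so.

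**Figure D1:**
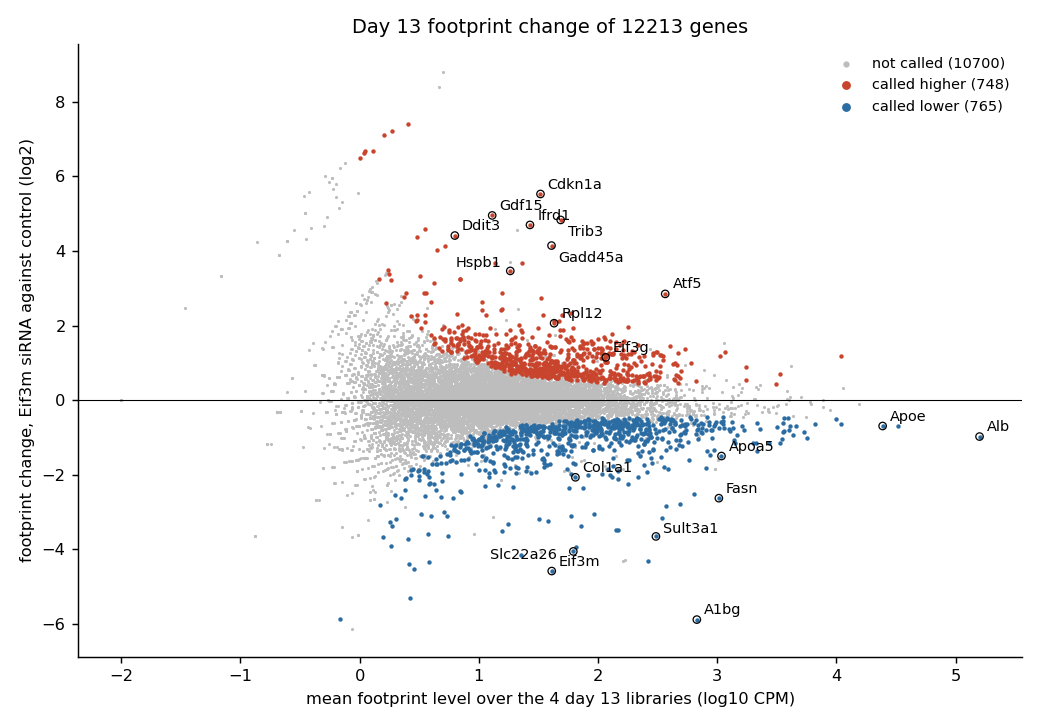
Each point is 1 of the 12213 tested genes, with the mean footprint level over the 4 libraries in log10 CPM on the horizontal axis and the log2 change, Eif3m siRNA against control, on the vertical axis. Red points (748) were called higher and blue points (765) lower. Cdkn1a at 5.53 and A1bg at -5.88 lie far from the mass of genes, and the group of points near the top left holds genes with 0 counts in both control libraries, for which the fitted change is no measured fold.

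Several of the largest rises were on genes of growth arrest and stress responses, which were almost unread in control liver. Cdkn1a, which encodes the cyclin-dependent kinase inhibitor p21, went from 1.74 and 1.07 CPM to 59 and 69.8 CPM, a log2 change of 5.53 (SE 0.43, adjusted p = 3.0e-07). Ifrd1, a transcriptional coregulator, went from 2.32 and 1.6 to 55.5 and 48 CPM, a change of 4.7 (SE 0.36, adjusted p = 1.7e-07). Trib3, a pseudokinase induced by amino acid and endoplasmic reticulum stress, went from 4.64 and 2.13 to 75.6 and 112 CPM, a change of 4.83 (SE 0.64, adjusted p = 0.0018). In each of these genes both treated livers were far above both controls, though a lack of overlap was a condition for naming them. Gadd45a, a growth arrest gene, rose from 3.48 and 5.33 to 61.8 and 92.3 CPM, a change of 4.15 (SE 0.34, adjusted p = 6.9e-07). Arhgef2, a microtubule-bound guanine nucleotide exchange factor, rose from 2.32 and 4.26 to 42.4 and 43.2 CPM, a change of 3.68 (adjusted p = 6.3e-05). Gdf15, a circulating stress hormone, had 3 counts in the controls together and 264 with Eif3m siRNA, a ratio of rates of 44.2 (95% interval 15 to 216) that covers counting error only. Ddit3, the stress transcription factor CHOP, had 2 and 115 counts, a ratio of 28.9 (95% interval 7.82 to 241). Both were called, and their levels in E1 and E2 were 18.3 and 31.7 CPM for Gdf15 and 10.9 and 13.1 CPM for Ddit3. Snhg1, a noncoding host of small nucleolar RNAs, rose from 0.58 and 3.2 to 28.1 and 23 CPM (log2 change 3.67, adjusted p = 0.012), the adenosine receptor gene Adora1 from 2.32 and 0.533 to 8.59 and 16.1 CPM (log2 change 3.26, adjusted p = 0.0017). Hspb1, a small heat shock protein gene, rose by 3.47 (adjusted p = 0.0035), with unequal levels of 14.3 and 52.5 CPM in E1 and E2. Control counts behind the fitted changes were low, at 3 and 2 in C1 and C2 for Cdkn1a, 4 and 1 for Adora1, 1 and 6 for Snhg1, 4 and 3 for Ifrd1 and 8 and 4 for Trib3. The size of such a fitted change depends on the prior count of the fit. Adora1 lost the call without E2 (adjusted p = 0.081). Hspb1 lost the call without C1 or C2 (adjusted p = 0.058 and 0.051). Snhg1 lost the call without C1 or E2 (adjusted p = 0.093 and 0.058).

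Many of the largest falls were on genes of hepatocyte secretion, detoxification and transport. A1bg, which encodes a plasma glycoprotein, fell from 1552 and 1103 CPM to 21.8 and 23 CPM, a log2 change of -5.88 (SE 0.70, adjusted p = 0.0031). The flavin-containing monooxygenase gene Fmo6 fell from 30.2 and 54.3 to 4.01 and 1.91 CPM (log2 change -4.14, adjusted p = 0.0084). The organic anion transporter genes Slc22a26 and Slc22a7 fell from 113 and 118 to 12.6 and 4.78 CPM and from 139 and 102 to 12 and 6.15 CPM, with changes of -4.05 (adjusted p = 2.1e-05) and -3.94 (adjusted p = 0.01). No treated liver reached a control liver in any of these genes, which was a condition for naming them and no separate result. The sulfotransferase genes Sult3a1 and Sult3a2 fell with changes of -3.65 (adjusted p = 0.0061) and -3.48 (adjusted p = 0.015). Mfsd2a, a lysophospholipid transporter gene, changed by -3.51 (adjusted p = 0.031) and Ptgds, a prostaglandin D synthase gene, by -3.65 (adjusted p = 0.04). Ptgds rests on few reads, 15.1 and 5.33 CPM in the controls and 1.15 and 0.683 CPM with Eif3m siRNA. A1bg, Fmo6 and Sult3a1 lost the call without E2 (adjusted p of 0.056 to 0.19). Slc22a7 lost the call without C1 or E2 (adjusted p = 0.056 and 0.15). Ptgds lost the call without C1 or E1 or E2 (adjusted p of 0.1 to 0.41). Sult3a2 lost the call without C2 or E1 or E2 (adjusted p of 0.072 to 0.15). Mfsd2a lost the call without any 1 of the 4 libraries (adjusted p of 0.061 to 0.22).

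**Figure D2:**
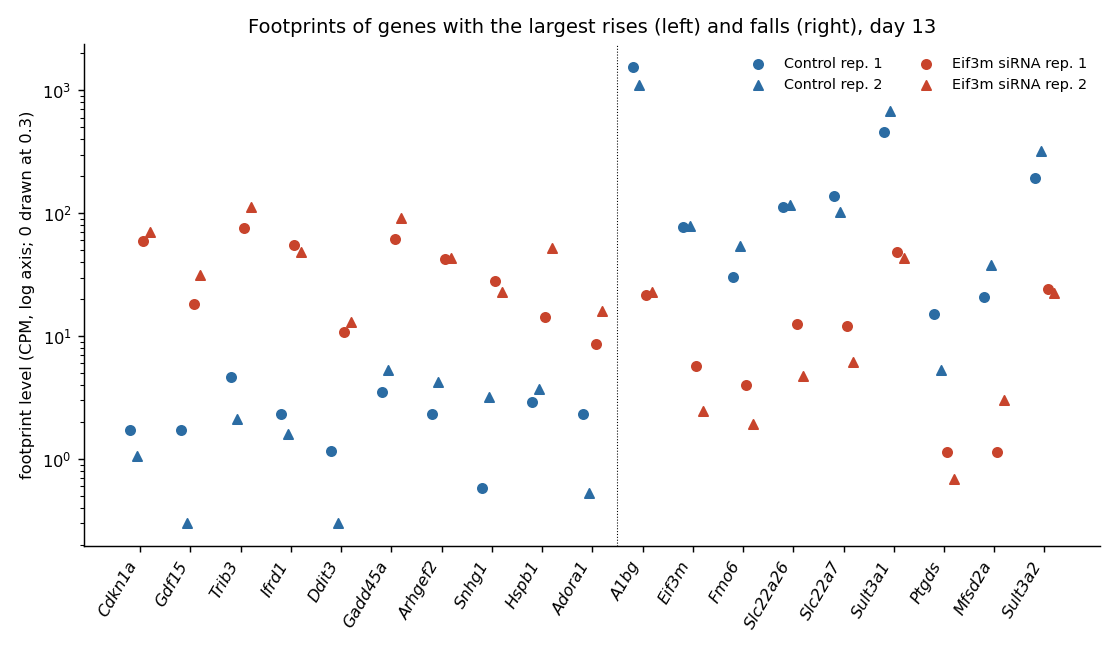
Footprint level in CPM on a log axis for the genes named among the largest rises on the left and falls on the right, with 1 symbol per library: blue for the 2 controls, red for the 2 Eif3m siRNA livers, circles for replicate 1 and triangles for replicate 2. Only genes whose groups did not overlap could be named here, so the separation of red and blue symbols was fixed by the choice. Replicates of Hspb1 and Ptgds lie visibly apart. A level of 0 is drawn at 0.3.

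The footprint shares of albumin, of the secreted liver proteins together, of the ribosomal proteins and of their assembly factors each moved in the same sense in both treated livers. Albumin took 18.5% of all footprints in C1 and 18.5% in C2, 13.0% in E1 and 10.4% in E2. The secreted liver proteins of the 4 lists of apolipoproteins, plasma carriers, coagulation and complement, and acute phase proteins together took 44.1% and 44% in the controls and 37.3% and 33.4% with Eif3m siRNA, a ratio of the mean shares of 0.802. Without albumin the same genes took 25.5% and 25.5% against 24.2% and 23.0%, so that most of the lower share was albumin's own. Cytosolic ribosomal protein genes took 0.483% and 0.651% in the controls and 1.55% and 1.6% with Eif3m siRNA, a ratio of 2.78. Assembly factors of the ribosome took 0.222% and 0.24% against 0.393% and 0.474%, a ratio of 1.88. In each of these groups the control and the treated livers were apart. The 10 most read genes held 31.5% and 31.5% of the control footprints and 26.4% and 23.1% of those with Eif3m siRNA, and the normalisation factors of the libraries (0.874 and 0.886 against 1.07 and 1.12) were lower in the controls. Shares need no such factor, but a fall in one gene's share raises the share of all others.

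**Figure D3:**
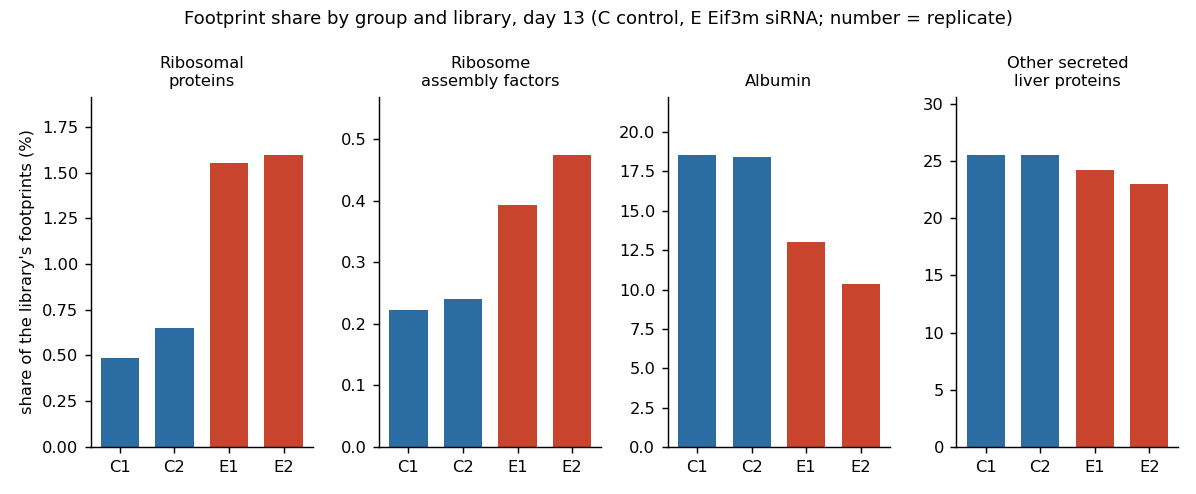
Share of each library's footprints, in percent, on ribosomal protein genes, ribosome assembly factor genes, albumin and the other secreted liver proteins, with a separate axis from 0 in each panel. C1 and C2 are the control livers and E1 and E2 the Eif3m siRNA livers; ribosomal proteins took 0.483% and 0.651% in the controls and 1.55% and 1.6% with Eif3m siRNA, and albumin 18.5% in each control against 13.0% and 10.4%.

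Genes of the ribosomal proteins themselves rose as a group. Of 46 tested large-subunit protein genes 36 were called higher and 0 lower, with a median log2 change of 1.14, and of 33 small-subunit protein genes 29 were called higher and 0 lower, with a median of 1.24. Over all genes 6.12% were called higher and the median was 0.02. Rpl13a, a large-subunit protein gene, rose from 58.6 and 86.3 to 269.7 and 293 CPM, a change of 1.96 (SE 0.21, adjusted p = 9.1e-06). Rpl12, whose protein sits in the stalk base of the large subunit, rose from 14.5 and 18.6 to 64.7 and 73.4 CPM, a change of 2.06 (SE 0.26, adjusted p = 3.5e-05). Among small-subunit genes, Rps23, close to the decoding centre, rose from 66.1 and 96.9 to 269 and 225 CPM with 1.59 (adjusted p = 0.0013), and Rps20 from 39.5 and 55.9 to 160.3 and 141 CPM with 1.65 (adjusted p = 0.0032). C1 was the lower of the controls in each of these 4 genes, and even the higher control lay below both treated livers. Rps15a rose by 1.6 (adjusted p = 0.0046), Rps12 by 1.94 (adjusted p = 0.019), Rpl22 by 1.48 (adjusted p = 0.0049) and Rpl10a by 1.48 (adjusted p = 0.031). Large-subunit genes called higher numbered 19, 34, 30 and 25 without C1, C2, E1 and E2 in turn, and small-subunit genes 20, 25, 25 and 24. Ribosomal protein genes have many processed copies in the genome, so that single values of the family are uncertain where the counting could split reads. With library totals in place of TMM the calls were 43 higher and 0 lower for large-subunit and 32 higher and 0 lower for small-subunit genes. Rps15a lost the call without C2 (adjusted p = 0.063). Rpl22 lost the call without C1 or E2 (adjusted p = 0.098 and 0.097). Rps12 lost the call without C1 or E1 or E2 (adjusted p of 0.075 to 0.12). Rpl10a lost the call without any 1 of the 4 libraries (adjusted p of 0.087 to 0.18).

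Ribosomal protein mRNAs are known for a run of pyrimidines that begins with C at the transcription start, the terminal oligopyrimidine tract. The RefSeq start windows (GRCm38.p6) of 8827 of the 12213 tested genes could be searched for C followed by at least 5 more C or T within 5 bases of the annotated start on the sense strand. Such a run was found in 1010 genes (11.4%) and in 24 of 61 ribosomal protein genes (39.3%). Among the called genes the share was 11.5% of the higher, 8.76% of the higher without ribosomal proteins and 12.7% of the lower. Beside the ribosomal proteins the run, as searched, was no more frequent among the genes that rose than among all tested genes. The search found it in only 39.3% of the ribosomal protein genes, so that it may miss many tracts elsewhere too. The accuracy of the annotated starts was not tested. Windows are printed from 10 bases before to 20 bases after the annotated start, with the run in capitals. They cover 7 genes that rose, and Rpl22l1, which has the run and was level at -0.02 (adjusted p = 0.99). They show how the length of the run and its position from the annotated start differ between genes.
Rpl13a, chr7:45128726-45128755, minus strand: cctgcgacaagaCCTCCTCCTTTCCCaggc
Rpl12, chr2:32961702-32961731, plus strand: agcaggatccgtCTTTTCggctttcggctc
Rpl18, chr7:45718061-45718090, plus strand: ctcgcaggccgCTCTTTCCCCgcccactcc
Rps23, chr13:90923112-90923141, plus strand: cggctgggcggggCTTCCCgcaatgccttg
Rps6, chr4:86857348-86857377, minus strand: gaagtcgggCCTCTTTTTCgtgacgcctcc
Rps26, chr10:128626487-128626516, minus strand: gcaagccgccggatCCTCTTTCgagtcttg
Rps9, chr7:3704031-3704060, plus strand: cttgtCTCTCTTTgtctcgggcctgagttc
Rpl22l1, chr3:28805498-28805527, plus strand: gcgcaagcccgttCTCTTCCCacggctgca
The run spans 6 bases in Rpl12 and Rps23 and 14 in Rpl13a, whose footprint changes were 2.06, 1.59 and 1.96. Rpl18, Rps6, Rps26 and Rps9, chosen for their clear runs after their values were seen, changed by 1.23, 1.43, 1.54 and 1.47 (adjusted p = 4.6e-05, 0.00035, 0.00011 and 0.00014).

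Elongation factors and other mRNAs of the same oligopyrimidine class rose less uniformly, with 7 of 17 called higher, 0 lower and a median of 0.53. That is 41.2% called higher, against 6.12% of all tested genes. Rack1, a scaffold protein of the small subunit, rose from 149 and 203 to 458 and 408 CPM (log2 change 1.29, adjusted p = 0.0025). The elongation factor 1 genes Eef1b2, Eef1g and Eef1d rose by 1.14, 0.96 and 0.8 (adjusted p = 0.0038, 0.0012 and 0.0021). Of 31 initiation factor genes outside eIF3, 6 were called higher (19.4%) and 1 lower, with a median of 0.38. Eif4g2, a relative of the scaffold eIF4G that lacks the cap-complex end, rose from 81.8 and 82.6 to 235 and 247 CPM, a change of 1.55 (SE 0.17, adjusted p = 9.1e-06). Eif6, which keeps the large subunit apart from the small one, rose from 53.4 and 42.6 to 104 and 97.9 CPM (log2 change 1.07, adjusted p = 0.00058), and Eif5, which triggers GTP hydrolysis at the start codon, from 51.1 and 35.7 to 110.0 and 87.6 CPM (log2 change 1.18, adjusted p = 0.0012). Eif2b3, a subunit of the exchange factor for eIF2, rose by 1.17 (adjusted p = 0.038). Without C1, C2, E1 and E2 the higher calls numbered 3, 5, 5 and 4 in the first list and 3, 5, 3 and 3 in the second. On the scale of library totals these 2 lists gave 11 higher and 0 lower and 18 higher and 0 lower calls. Eef1b2 lost the call without C1 (adjusted p = 0.054). Eif2b3 lost the call without any 1 of the 4 libraries (adjusted p of 0.063 to 0.32).

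Many factors that build the ribosome also rose. Of 54 small-subunit assembly factor genes 20 were called higher and 0 lower (median 0.7), and of 57 large-subunit assembly factor genes 23 higher and 0 lower (median 0.6). These are 37.0% and 40.4% called higher, against 6.12% of all tested genes. Fitted changes lay above 0 in 54 of 54 and 53 of 57 genes. Nhp2, a core protein of box H/ACA guide particles, rose from 8.12 and 7.46 to 28.1 and 28.8 CPM, a change of 1.87 (SE 0.26, adjusted p = 9.7e-05). Nop56, a core protein of box C/D guide particles, rose from 17.4 and 27.2 to 56.1 and 102 CPM (log2 change 1.87, adjusted p = 0.0025), its partner Nop58 from 15.1 and 20.8 to 41.2 and 46.7 CPM (log2 change 1.3, adjusted p = 0.015). E2 was the highest library for all 3. Grwd1, a chaperone for ribosomal protein uL3, rose from 8.7 and 10.7 to 25.2 and 29.5 CPM (log2 change 1.52, adjusted p = 0.0017). Tma16, Nle1 and Noc2l, factors of the large-subunit pathway, rose by 1.45, 1.3 and 1.18 (adjusted p = 0.0038, 0.044 and 0.0021), and Gar1, a second protein of the H/ACA particle, by 1.28 (adjusted p = 0.0054). RNA polymerase I and its factors gave 1 higher call of 17 (5.88%), near the share of all genes, with a median of 0.62. The call was Polr1e, a polymerase subunit gene, which rose from 3.48 and 4.79 to 12 and 14.1 CPM (log2 change 1.68, adjusted p = 0.007). These counts changed with the library left out: without C1, C2, E1 and E2 the higher calls were 5, 9, 20 and 2 for the small and 9, 9, 21 and 2 for the large subunit. Library totals gave 37 higher and 0 lower for small-subunit factors, 36 higher and 0 lower for large-subunit factors and 8 higher and 0 lower for RNA polymerase I. Grwd1 lost the call without E2 (adjusted p = 0.056). Polr1e lost the call without C1 or E2 (adjusted p = 0.093 and 0.13). Tma16 and Noc2l lost the call without C2 or E2 (adjusted p of 0.053 to 0.1). Nop58, Nle1 and Gar1 lost the call without C1 or C2 or E2 (adjusted p of 0.051 to 0.54).

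Of 15 motifs searched on both strands from 250 bases before to 50 after the RefSeq start (GRCm38.p6), all chosen after the values were seen, CCGGAAGT, the core letters bound by ETS family factors, stood in different shares of the higher and the lower calls. It was present in 820 of 8827 tested genes with a window (9.29%), in 80 of 495 called higher (16.2%) and in 12 of 557 called lower (2.15%). Among genes with a mean of at least 5 CPM the shares were 10.3%, 16.5% and 2.27%. It was present in 14 of 45 small-subunit assembly factor genes (31.1%), 14 of 49 large-subunit assembly factor genes (28.6%) and 6 of 15 RNA polymerase I genes. The shorter CGGAAG, which it contains, was in 34.8% of all windows, 45.9% of the higher and 17.8% of the lower calls, and TCGCGAGA in 2.53%, 5.25% and 0.18%. TATAAA ran the other way, with 9.7%, 9.9% and 13.8%. A match describes the letters only, and the part of base composition was not tested. Windows of 5 assembly factor genes that rose are printed with the match in capitals, read on the strand of the gene (ACTTCCGG is the same motif on the other strand), to show where it lies relative to the start.
Nhp2, chr11:51619734-51619773, plus strand: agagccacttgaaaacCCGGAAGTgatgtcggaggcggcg
Grwd1, chr7:45830805-45830844, minus strand: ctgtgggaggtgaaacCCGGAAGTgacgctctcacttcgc
Gar1, chr3:129831417-129831456, minus strand: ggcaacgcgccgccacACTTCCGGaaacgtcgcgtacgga
Noc2l, chr4:156235995-156236024, plus strand: gcgcaaggcattctgggcCCGGAAGTgcgg
Wdr46, chr17:33940645-33940684, plus strand: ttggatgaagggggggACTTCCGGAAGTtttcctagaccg
The match begins 23 bases before the start in Nhp2, 39 in Grwd1 and 44 in Gar1. Wdr46, a small-subunit factor gene with overlapping matches on both strands, was chosen after its values were seen and changed by 0.84 (adjusted p = 0.014). Wdr46 lost the call without C2 or E2 (adjusted p = 0.21 and 0.24).

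Other lists of the translation machinery had smaller medians. Of 20 cytosolic aminoacyl-tRNA synthetase genes, 5 were called higher (25%) and 1 lower (5%), with a median of 0.34. The shares of all tested genes were 6.12% and 6.26%. Farsa, Vars and Kars, which charge the tRNAs for phenylalanine, valine and lysine, rose by 0.77, 0.74 and 0.72 (adjusted p = 0.02, 0.018 and 0.021), whereas Tars, for threonine, fell from 185 and 165 to 104 and 108 CPM (log2 change -0.72, adjusted p = 0.007). No higher call of this list was kept without C1 or without E2, with 0, 1, 2 and 0 higher calls without C1, C2, E1 and E2. mRNAs with known regulatory upstream reading frames gave 6 higher and 1 lower of 16 (median 0.29), led by Ddit3 and by Atf5, a transcription factor gene read at 94.6 and 84.2 CPM in the controls and 588 and 699 CPM with Eif3m siRNA, a change of 2.85 (SE 0.23, adjusted p = 8.5e-07). Ibtk, another such mRNA, rose by 1.13 (adjusted p = 0.0028), and Amd1, the enzyme of polyamine synthesis whose upstream frame senses polyamines, fell from 15.1 and 13.3 to 4.58 and 5.74 CPM (log2 change -1.38, adjusted p = 0.0048). Of 19 selenoprotein genes 4 were called higher and 3 lower, with a median of -0.07 that was 0.26 with library totals. Dio1, the deiodinase that activates thyroid hormone, fell from 80.1 and 56.5 to 9.74 and 6.15 CPM (log2 change -3.25, adjusted p = 0.032), while Sephs2, which makes the selenium donor, rose by 0.79 (adjusted p = 0.0036), and Vimp and Selo changed by 0.85 and -0.62. Scaled to library totals, the synthetases gave 12 higher and 0 lower calls, mRNAs with upstream frames 6 higher and 1 lower and selenoproteins 5 higher and 1 lower. Farsa, Ibtk, Amd1 and Sephs2 lost the call without C1 or E2 (adjusted p of 0.053 to 0.24). Vimp lost the call without C2 or E2 (adjusted p = 0.14 and 0.15). Vars, Kars and Dio1 lost the call without any 1 of the 4 libraries (adjusted p of 0.054 to 0.29). Tars lost the call without C1 or E1 or E2 and with library totals (adjusted p of 0.054 to 0.11). Selo lost the call without C2 or E1 or E2 and with library totals (adjusted p of 0.062 to 0.24).

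Targets of p53 were often called higher: 12 of 31 tested (38.7%) were called higher and 1 lower, with a median of 1.08. Among all tested genes 6.12% were called higher and 6.26% lower. Beside Cdkn1a, Gdf15 and Gadd45a, Trp53inp1, a stress-induced p53 cofactor, rose from 12.8 and 4.79 to 55 and 60.6 CPM, a change of 2.75 (SE 0.38, adjusted p = 0.00028). Phlda3, an AKT inhibitor chosen here after its values were seen, had 2 control counts and 93 with Eif3m siRNA, a ratio of 23.4 (95% interval 6.29 to 196). Growth arrest and early response genes gave 6 higher (25%) and 1 lower of 24 (median 0.52). Junb and Atf3, immediate early transcription factors, rose from 13.9 and 7.46 to 27.5 and 44 CPM (log2 change 1.82, adjusted p = 0.0047) and from 2.9 and 2.66 to 9.74 and 11.5 CPM (log2 change 1.96, adjusted p = 0.0069). Gadd45b, a paralogue of Gadd45a, was the member called lower, with 18 control counts against 2, a ratio of 0.0558 (95% interval 0.00628 to 0.233); it lies outside the naming rule and was chosen after its values were seen. The higher calls were 9, 8, 12 and 6 for the p53 list and 4, 2, 7 and 2 for the growth arrest list without C1, C2, E1 and E2. With library totals the p53 list gave 15 higher and 0 lower and the growth arrest list 10 higher and 1 lower calls. Phlda3 and Gadd45b lost the call without E2 (adjusted p = 0.076 and 0.071). Junb lost the call without C2 or E2 (adjusted p = 0.077 and 0.11). Atf3 lost the call without C1 or C2 or E2 (adjusted p of 0.06 to 0.15).

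Genes of the integrated stress response, which is switched on by phosphorylation of eIF2 and runs through ATF4, were called higher in part. Of 29 tested, 8 were called higher (27.6%) and 2 lower (6.9%), with a median of 0.43. Over all tested genes 6.12% were called higher and 6.26% lower, so that the lower share was near that of all genes. Trib3, Ddit3, Gdf15 and Atf5 were among the higher calls. Asns, the asparagine synthetase gene, was not called at 0.29 (adjusted p = 0.9). It had a value in 14 of the 17 settings, with changes from -0.015 to 0.72, so that the missing call says little. The lower calls were Ddit4, which restrains mTORC1, and Shmt2, a mitochondrial enzyme of serine and folate metabolism that lies outside the naming rule, from 241 and 256 to 109 and 118 CPM (log2 change -1.13, adjusted p = 0.00036). The higher calls were 7, 6, 8 and 5 without C1, C2, E1 and E2, and library totals gave 13 higher and 2 lower calls. The letters of the C/EBP-ATF response element, TGATGNAA on either strand, were in 8 of 24 promoter windows of this list (33.3%) and 5 of 12 of the synthetase list, against 2.76% of all tested genes, 3.43% of the higher and 3.59% of the lower calls. The list holds genes known to carry the element, so that its share describes the choice of members. A pair of windows show the element, in capitals, in a gene that rose and in one that was not called.
Atf3, chr1:191183410-191183469, minus strand: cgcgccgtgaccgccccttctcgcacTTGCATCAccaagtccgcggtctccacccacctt
Asns, chr6:7693200-7693258, minus strand: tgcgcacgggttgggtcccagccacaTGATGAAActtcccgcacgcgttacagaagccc
Asns and Shmt2 were picked after their values were seen. The windows of Atf3 and Asns match the pattern TGATGNAA, on opposite strands and with different bases at N. Their footprint changes were 1.96 for Atf3 and an uncertain 0.29 for Asns.

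Genes that make lipid were read less. Of 26 fatty acid and triglyceride synthesis genes 13 were called lower and 0 higher (median -0.69), and of 25 cholesterol synthesis genes 6 lower and 0 higher (median -0.98), against 6.26% lower over all genes. Fasn, the fatty acid synthase, fell from 1388 and 2167 to 309 and 268 CPM, a change of -2.63 (SE 0.40, adjusted p = 0.0046). Scd1, the desaturase that makes oleate, fell from 1094 and 1399.9 to 409 and 299 CPM, a change of -1.82 (SE 0.31, adjusted p = 0.0039). C1 was the lower control in both and lay well above each treated liver. Acacb, which makes the malonyl-CoA that holds back fat oxidation, fell from 51.1 and 64.5 to 7.44 and 6.01 CPM (log2 change -3.17, adjusted p = 0.026), and Thrsp, a regulator of lipogenesis, from 405 and 843 to 57.8 and 80.2 CPM (log2 change -3.15, adjusted p = 0.049). Pnpla3, a lipase gene of lipid droplets, had 19 control counts and 1 with Eif3m siRNA, a ratio of 0.0265 (95% interval 0.000637 to 0.166), and was picked after its values were seen. In the sterol pathway, Insig1, which retains the SREBP complex in the endoplasmic reticulum, fell from 321 and 268 to 76.7 and 50.6 CPM (log2 change -2.25, adjusted p = 0.0017). The reductase gene Tm7sf2 changed by -1.26 (adjusted p = 0.0094). Fatty acid oxidation and PPAR-alpha target genes gave 8 lower and 0 higher calls of 37, with a median of -0.25 that was 0.07 with library totals. Ehhadh and Hadh, dehydrogenases of peroxisomal and mitochondrial oxidation, fell from 787 and 553 to 286 and 292 CPM and from 467 and 457 to 221 and 226 CPM (-1.21 and -1.05, adjusted p = 0.00091 and 0.00083), and Acot4 and the fatty acid binding protein gene Fabp1 changed by -1.67 and -1.15. Lower calls without C1, C2, E1 and E2 were 11, 5, 8 and 0 for fatty acid, 7, 4, 7 and 4 for cholesterol and 3, 4, 3 and 2 for oxidation genes. Scaling by library totals gave 1 higher and 8 lower calls for fatty acid, 0 higher and 5 lower for cholesterol and 4 higher and 3 lower for oxidation genes. Fasn, Scd1 and Pnpla3 lost the call without E2 (adjusted p of 0.069 to 0.13). Tm7sf2 lost the call without C2 or E2 (adjusted p = 0.085 and 0.22). Fabp1 lost the call without C1 or E2 and with library totals (adjusted p of 0.076 to 0.28). Acot4 lost the call without C2 or E1 or E2 (adjusted p of 0.068 to 0.11). Acacb and Thrsp lost the call without any 1 of the 4 libraries (adjusted p of 0.086 to 0.26).

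Detoxifying enzymes and hepatocyte transporters were lower in part, beside 6.26% called lower and 6.12% higher over all tested genes. Cytochrome P450 enzymes gave 11 lower and 1 higher calls of 43 (median -0.3, 0.02 with library totals), conjugating enzymes 15 and 2 of 50 (median -0.35), and bile acid and transporter genes 13 and 2 of 38 (median -0.48). The P450 genes Cyp2c37, Cyp2c50 and Cyp2c54, close relatives in 1 cluster, had changes of -1.39, -1.34 and -1.13 (adjusted p = 3.6e-05, 9.5e-05 and 0.00031), and reads may be shared among them. Cyp2u1, which acts on fatty acids, rose from 4.06 and 5.86 to 22.3 and 29.4 CPM (log2 change 2.42, adjusted p = 5.5e-05). Gstt3, a glutathione transferase gene, fell from 202 and 218 to 52.1 and 49.2 CPM, a change of -2.06 (SE 0.20, adjusted p = 2.2e-06). Ugt1a1, which conjugates bilirubin, fell from 404 and 417 to 117 and 99.1 CPM (log2 change -1.93, adjusted p = 0.0032). Ugt1a2 and Ugt1a5, first-exon forms of the same locus that share their other exons with it, changed by -3.11 and -3.32, and their values are uncertain for that reason. The uptake transporter genes Slco1b2 and Slco2b1 fell from 1328 and 1201 to 515 and 408 CPM (log2 change -1.46, adjusted p = 5.0e-05) and from 118 and 147 to 30.9 and 34.7 CPM (log2 change -2.0, adjusted p = 9.7e-07). Akr1d1, a reductase of bile acid synthesis, fell from 320.3 and 351 to 131 and 131 CPM (log2 change -1.36, adjusted p = 4.6e-05). In all of these the 2 treated livers were closer to each other than to either control. Lower calls without C1, C2, E1 and E2 were 10, 7, 8 and 6, 8, 9, 10 and 6 and 10, 11, 11 and 6 for the 3 lists. The counts depended on the scale: with library totals they were 6 higher and 7 lower for P450 enzymes, 3 higher and 8 lower for conjugating enzymes (median -0.03) and 2 higher and 10 lower for transporter genes (median -0.16). Footprint shares of the conjugating enzymes overlapped between the groups, at 1.16% and 1.11% in the controls and 1.09% and 1.18% with Eif3m siRNA. Ugt1a1 lost the call without E2 (adjusted p = 0.077).

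Footprints were lower on many genes of secreted liver proteins, and secretion itself was not measured. Called lower were 16 of 25 apolipoproteins and lipid carriers, 19 of 35 plasma carriers, 24 of 44 coagulation and complement proteins and 10 of 29 acute phase genes, with medians of -0.64, -0.57, -0.54 and -0.57. Called higher were 0, 4, 2 and 1. Over all tested genes 6.26% were called lower and 6.12% higher. With library totals the lower calls were 8, 9, 11 and 8 and the higher calls 1, 5, 5 and 2. The medians were then closer to 0, at -0.33, -0.26, -0.22 and -0.25. Footprint shares of the acute phase genes overlapped between the groups, at 1.08% and 1.62% in the controls and 1.04% and 1.33% with Eif3m siRNA. Without C1, C2, E1 and E2 the lower calls were 7, 11, 12 and 5 for the first list and 12, 16, 18 and 5 for coagulation and complement. Alb, the most read gene of the liver, fell from 212461 and 208803 CPM to 121975 and 92516 CPM, a change of -0.97 (SE 0.17, adjusted p = 0.00058). Fga and Fgg, chains of fibrinogen, fell from 8505 and 6716 to 4112 and 3504 CPM and from 5306 and 4144 to 2495 and 2102 CPM, changes of -1.0 and -1.04 (adjusted p = 0.00016 and 0.00022). Cfb, of the alternative complement pathway, fell from 2951 and 2895 to 1394 and 1259 CPM (log2 change -1.14, adjusted p = 7.4e-05), and Serpinf1 from 925 and 933 to 472 and 440.3 CPM (log2 change -1.03, adjusted p = 0.00054). For these 5 genes E2 was the lowest library and E1 the next. Apoa5, which helps clear triglyceride, fell from 1454 and 1756 to 495 and 641 CPM, a change of -1.5 (SE 0.19, adjusted p = 2.9e-05), and the hepatic lipase gene Lipc from 286 and 244 to 93.3 and 80.9 CPM, a change of -1.62 (SE 0.18, adjusted p = 8.1e-06). Apol9a and Apol9b changed by -1.61 and -1.74, near-identical copies whose reads may be split. The inhibitor gene Serpina3m and Igfals, which carries IGF in a ternary complex, changed by -1.37 and -1.49 on the log2 scale (adjusted p = 5.1e-05 and 0.00041). Serpina7, thyroxine-binding globulin, went against its list from 16.2 and 18.6 to 76.2 and 77.4 CPM (log2 change 2.13, adjusted p = 0.027), as did Hpx, the heme carrier, from 6353 and 7017 to 15927 and 14617 CPM (log2 change 1.19, adjusted p = 2.1e-05), which was picked after its values were seen. Apol9a and Apol9b lost the call without E2 (adjusted p = 0.13 and 0.06). Serpina7 lost the call without any 1 of the 4 libraries (adjusted p of 0.074 to 0.16).

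Among the 10 genes with the largest share of control footprints the fall was not general. Apoe, Trf, Apoa2, Ttr and Pzp, which encode carriers of lipid, iron and thyroid hormone and a protease inhibitor, were called lower with changes of -0.69, -0.69, -0.64, -0.51 and -0.64 (adjusted p = 0.0085, 0.008, 0.0071, 0.029 and 0.011). Ahsg, Gc and Apob were not called at -0.11, -0.17 and -0.26, values whose sign turned with library totals, and Cps1, the first enzyme of the urea cycle, was not called at 0.33. The control and treated levels were 30606 and 29762 against 18227 and 19176 CPM for Apoe, 9939 and 9336 against 8509 and 7607 CPM for Apob and 9649.7 and 10611 against 12161 and 13376 CPM for Cps1. Major urinary protein genes gave 0 calls of 9 at a median of -0.51 and 0 calls with library totals (median -0.19), and single values of this family of near-identical genes are uncertain: Mup3 was at 1212 and 733 and 947 and 777 CPM and Mup21 at 437 and 243 and 289 and 194 CPM, ranges that overlapped. In the acute phase list Orm1 and Orm2, which encode acid glycoproteins, fell from 364 and 465 to 132 and 151 CPM (log2 change -1.55, adjusted p = 1.8e-05) and from 167 and 247 to 57.3 and 64 CPM (log2 change -1.76, adjusted p = 5.0e-05). Lrg1, a secreted leucine-rich glycoprotein, fell from 558 and 739 to 109 and 76 CPM (log2 change -2.84, adjusted p = 0.0036), and the siderophore carrier Lcn2 from 62.7 and 201 to 13.7 and 12.3 CPM (log2 change -3.38, adjusted p = 0.047), with controls far apart. Acute phase genes called lower were 11, 5, 7 and 4 without C1, C2, E1 and E2. Lrg1 lost the call without E2 (adjusted p = 0.059). Apoa2 lost the call without C1 or E2 and with library totals (adjusted p of 0.062 to 0.15). Lcn2 lost the call without C2 or E1 or E2 (adjusted p of 0.15 to 0.31). Trf lost the call without C2 or E2 and with library totals (adjusted p of 0.074 to 0.2). Pzp lost the call without C1 or C2 or E2 and with library totals (adjusted p of 0.061 to 0.27). Apoe and Ttr lost the call without any 1 of the 4 libraries and with library totals (adjusted p of 0.054 to 0.38).

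Regulators and other metabolic lists gave fewer calls, set here beside 6.12% higher and 6.26% lower over all tested genes. The shares called higher among hepatocyte transcription factors (6.06%) and urea and amino acid genes (6.25%) were near that of all genes. Hepatocyte transcription factors gave 2 higher and 5 lower calls of 33 (median 0.05), and the lower ones, among them the nuclear receptor Nr1i3 (-1.36) and the factors Onecut1 (-1.36) and Onecut2 (-0.86), lay near the threshold (adjusted p = 0.034, 0.049 and 0.043). In the IGF and insulin list, with 2 higher and 3 lower of 20 (median -0.31, 0.01 with library totals), the growth hormone receptor gene Ghr fell from 262 and 286 to 96.8 and 86.4 CPM, a change of -1.59 (SE 0.16, adjusted p = 3.3e-06). Igfbp1, an IGF-binding protein that insulin represses, rose from 29 and 11.7 to 71 and 126 CPM (log2 change 2.33, adjusted p = 0.019), and the insulin receptor substrate gene Irs2 by 0.85 (adjusted p = 0.035). Iron and metal handling gave 0 higher and 5 lower of 23 (median -0.04, 0.28 with library totals), with Slc39a4, a zinc importer, at -1.21 and Tmprss6, the protease that restrains hepcidin, at -1.02 (adjusted p = 0.00036 and 0.00052), and the manganese exporter gene Slc30a10 at -0.99. Glucose and glycogen genes gave 0 higher and 4 lower of 24 (median -0.25, 0.07 with library totals): Slc2a2, the glucose transporter of hepatocytes, fell from 340.0 and 365 to 200.4 and 185 CPM (log2 change -0.87, adjusted p = 0.00081), and Pklr and Pygl, which end glycolysis and break glycogen, changed by -0.71 and -0.55. Urea cycle and amino acid catabolism gave 3 higher and 9 lower of 48 (median -0.17, 0.15 with library totals). Of all footprints, glucose and glycogen genes took 1.34% and 1.24% in the controls and 1.64% and 1.72% with Eif3m siRNA. Urea and amino acid genes took 4.38% and 4.9% against 5.43% and 6.14%. The footprint shares of both lists were thus higher in the treated livers, although more members were called lower than higher. Tdo2 and Haao, the first and a later enzyme of tryptophan breakdown, moved apart, from 1225 and 1215 to 2236 and 2258 CPM (log2 change 0.88, adjusted p = 0.0036) and from 507 and 559 to 229 and 263 CPM (log2 change -1.11, adjusted p = 9.8e-05). Prodh, for proline, and Csad, for taurine synthesis, changed by -0.86 and -1.22. Lower calls without C1, C2, E1 and E2 were 0, 1, 1 and 0 for transcription factors, 3, 3, 3 and 2 for iron and metal, 4, 1, 2 and 1 for glucose and 3, 4, 6 and 2 for urea and amino acid genes. In place of these counts, library totals gave 3 higher and 0 lower for transcription factors, 4 higher and 3 lower for IGF and insulin, 0 higher and 2 lower for iron and metal, 4 higher and 1 lower for glucose and 9 higher and 3 lower for urea and amino acid genes. Igfbp1 lost the call without C2 or E2 (adjusted p = 0.079 and 0.11). Irs2 lost the call without C1 or C2 or E2 (adjusted p of 0.16 to 0.45). Prodh lost the call without C2 or E1 and with library totals (adjusted p of 0.07 to 0.17). Pklr lost the call without C2 or E2 and with library totals (adjusted p of 0.14 to 0.39). Csad lost the call without any 1 of the 4 libraries (adjusted p of 0.059 to 0.15). Slc30a10 lost the call without C1 or E1 or E2 and with library totals (adjusted p of 0.067 to 0.41). Nr1i3, Onecut1, Onecut2 and Pygl lost the call without any 1 of the 4 libraries and with library totals (adjusted p of 0.057 to 0.3).

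Mitochondrial ribosomal proteins, which are made in the cytosol, gave 12 higher and 1 lower of 77 (median 0.35), and nuclear-encoded respiratory chain subunits 7 and 1 of 75 (median 0.15). The higher calls are 15.6% and 9.33% of these lists, against 6.12% of all tested genes. Mrpl54, Mrpl52 and Mrps18b rose from 11.6 and 10.7 to 34.9 and 35.5 CPM (log2 change 1.67, adjusted p = 9.5e-05), from 56.9 and 59.7 to 135 and 170.2 CPM (log2 change 1.4, adjusted p = 7.4e-05) and from 49.9 and 38.4 to 96.2 and 97 CPM (log2 change 1.13, adjusted p = 0.0015), and Mrpl20 by 1.03. Of complex I, Ndufb11 and Ndufb6 rose by 0.79 and 0.74, and of complexes III and IV Uqcr10 and Cox5a by 0.62 and 0.61. Higher calls without C1, C2, E1 and E2 were 5, 4, 11 and 4 for mitochondrial ribosomal proteins and 2, 2, 2 and 1 for the respiratory chain. Proteasome subunits gave 2 higher and 0 lower of 32 (median -0.06, 0.26 with library totals), Psmc4 at 0.58 and Psmb6 at 0.47. Their share called higher, 6.25%, was near that of all genes, so that no rise of the list was shown. These counts depended on the scale: with library totals the calls were 44 higher and 0 lower (median 0.68) for mitochondrial ribosomal proteins, 37 higher and 0 lower (median 0.47) for the respiratory chain and 9 higher and 0 lower for the proteasome. Ndufb11 lost the call without C1 (adjusted p = 0.09). Ndufb6 lost the call without E2 (adjusted p = 0.064). Mrpl20 lost the call without C2 or E2 (adjusted p = 0.078 and 0.13). Psmc4 and Psmb6 lost the call without C1 or C2 or E2 (adjusted p of 0.095 to 0.4). Cox5a lost the call without C2 or E1 or E2 (adjusted p of 0.054 to 0.18). Uqcr10 lost the call without any 1 of the 4 libraries (adjusted p of 0.065 to 0.15).

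Of 25 genes of folding in the endoplasmic reticulum and the unfolded protein response, 6 were called lower and 1 higher (median -0.36) on the TMM scale, but 3 higher and 1 lower (median -0.04) with library totals. Their footprint shares overlapped, at 0.97% and 0.89% in the controls and 0.896% and 0.963% with Eif3m siRNA, so that no direction of the list was shown. Dnajb9, a cochaperone that holds the sensor IRE1 inactive, fell from 52.2 and 41 to 15.5 and 10.9 CPM, a change of -1.91 (SE 0.29, adjusted p = 0.00023). Sdf2l1 and Pdia4, a luminal chaperone partner and a disulfide isomerase, changed by -0.88 and -0.64 (adjusted p = 0.0082 and 0.0047), while Ern1, the gene of IRE1 itself, rose from 46.4 and 47.9 to 93.9 and 82.1 CPM (log2 change 0.89, adjusted p = 0.0084). Cytosolic heat shock chaperones gave 2 higher (9.52%) and 3 lower (14.3%) of 21 (median -0.06, 0.26 with library totals), against 6.12% and 6.26% of all tested genes. Bag3, a cochaperone of HSP70, fell from 77.2 and 87.9 to 28.6 and 29.4 CPM, a change of -1.5 (SE 0.18, adjusted p = 2.1e-05). Hspa1a and Hspa1b, the inducible HSP70 genes, changed by -1.19 and -1.22 and share nearly all of their sequence. NRF2 targets gave 2 higher and 6 lower of 27 (median -0.3, 0.02 with library totals): the exporter gene Abcc3 fell from 126 and 182 to 63.6 and 61.1 CPM (log2 change -1.31, adjusted p = 0.0016), Pgd and Ugdh changed by -0.95 and -0.77, and Srxn1 by 1.15. Lower calls in the endoplasmic reticulum list were 1, 3, 2 and 2 without C1, C2, E1 and E2, and those of NRF2 targets 2, 2, 3 and 1. Heat shock chaperones gave 7 higher and 3 lower and NRF2 targets 3 higher and 2 lower calls with library totals, and the footprint shares of NRF2 targets overlapped, at 0.374% and 0.32% against 0.326% and 0.389%. Abcc3 lost the call without E2 (adjusted p = 0.058). Hspa1b and Pgd lost the call without C2 or E2 (adjusted p of 0.059 to 0.11). Ern1 lost the call without C1 or C2 or E1 (adjusted p of 0.05 to 0.077). Srxn1 lost the call without C1 or C2 or E2 (adjusted p of 0.069 to 0.62). Sdf2l1 lost the call without C1 or E1 and with library totals (adjusted p of 0.07 to 0.14). Pdia4 lost the call without C1 or E2 and with library totals (adjusted p of 0.061 to 0.12). Hspa1a lost the call without C2 or E1 or E2 (adjusted p of 0.062 to 0.11). Ugdh lost the call without C1 or C2 or E1 and with library totals (adjusted p of 0.052 to 0.091).

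Cell cycle genes gave 1 higher and 1 lower of 34 (median -0.2, 0.13 with library totals), namely the replication helicase gene Mcm7 at 0.99 and the thymidine kinase gene Tk1 at -0.91. mTORC1 components and brakes gave 2 higher and 1 lower of 29 (median -0.19, 0.14 with library totals): Ddit4, a stress-induced brake of mTORC1, fell from 11.6 and 18.1 to 3.44 and 4.92 CPM (log2 change -1.72, adjusted p = 0.0047), and Sesn2 and Lamtor5, another brake and a lysosomal anchor, rose by 1.49 and 1.04. Circadian clock genes gave 1 call of 18 (median -0.07, 0.25 with library totals), Bhlhe40 at -0.71. The shares called in these lists were near or below the 6.12% higher and 6.26% lower of all tested genes. They were 2.94% higher and 2.94% lower for the cell cycle, 6.9% and 3.45% for mTORC1, and 5.56% lower for the clock. Interferon-stimulated and antigen presentation genes gave 8 lower and 0 higher of 38 (median -0.61). Their footprint shares overlapped between the groups, at 0.251% and 0.263% in the controls and 0.27% and 0.216% with Eif3m siRNA. H2-Ab1, H2-Eb1 and Cd74, the class II chains and the invariant chain, fell from 51.1 and 90.0 to 33.2 and 26.7 CPM (log2 change -1.28, adjusted p = 0.0022), from 8.12 and 18.1 to 5.15 and 5.06 CPM (log2 change -1.38, adjusted p = 0.028) and from 279 and 429.9 to 214 and 137 CPM (log2 change -1.03, adjusted p = 0.0083), and the ubiquitin-like Isg15 changed by -1.24. C2 was the highest library for all 3 class II genes. Lower calls of the interferon list were 4, 2, 7 and 0 without C1, C2, E1 and E2. Counts with library totals were 2 higher and 0 lower for the cell cycle, 4 higher and 1 lower for mTORC1, 3 higher and 0 lower for the clock and 0 higher and 4 lower for interferon genes. Mcm7, Ddit4, Sesn2, H2-Ab1 and Cd74 lost the call without C2 or E2 (adjusted p of 0.065 to 0.51). Lamtor5 lost the call without C1 or C2 or E2 (adjusted p of 0.11 to 0.24). Isg15 lost the call without C1 or C2 or E2 and with library totals (adjusted p of 0.053 to 0.31). Bhlhe40 and H2-Eb1 lost the call without C2 or E1 or E2 and with library totals (adjusted p of 0.066 to 0.52). Tk1 lost the call without any 1 of the 4 libraries and with library totals (adjusted p of 0.083 to 0.3).

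Lists with few calls in a direction held further called genes, which lie outside the naming rule and were chosen after their values were seen. Socs2, an inhibitor of growth hormone signalling, fell from 7.54 and 6.92 to 1.72 and 1.23 CPM, a log2 change of -2.41 (SE 0.48, adjusted p = 0.0023). Hspe1, a mitochondrial chaperonin, rose from 186 and 198 to 342 and 403 CPM, a change of 0.96 (SE 0.17, adjusted p = 0.00081). Gstp1 and Gstp2, close copies among the glutathione transferases, rose from 245 and 210.4 to 384 and 481 CPM and from 139 and 133 to 175 and 260.0 CPM, changes of 0.93 (adjusted p = 0.001) and 0.69 (adjusted p = 0.014). The groups did not overlap in these 4 genes, which follows largely from the call and is no separate support. Rbp4, the plasma carrier of retinol, rose from 2694 and 2437 to 4158 and 4187 CPM with 0.7 (adjusted p = 0.0034), and the secreted proteins Itih2, Mbl2 and Sepp1, the last a selenium carrier, rose by 0.54 (adjusted p = 0.031), 0.51 (adjusted p = 0.029) and 0.45 (adjusted p = 0.041). Among enzymes and transporters, Acox2 of bile acid synthesis, the phospholipid exporter gene Abcb4, the ornithine carrier gene Slc25a15, the kynureninase gene Kynu and the epoxide hydrolase gene Ephx1 rose by 0.71, 0.57, 0.46, 0.65 and 0.64 (adjusted p = 0.0065, 0.019, 0.048, 0.023 and 0.028). The synthetase genes Eprs and Gars, the selenoprotein gene Sep15, the adhesion gene Icam1 and the aryl hydrocarbon receptor gene Ahr rose by 0.5, 0.55, 0.56, 0.7 and 0.68 (adjusted p = 0.037, 0.038, 0.032, 0.019 and 0.047). Called lower were Eif4ebp2, a repressor of the cap-binding protein, at -0.92 (adjusted p = 0.02), the mitochondrial genes Mrpl14 and Uqcrfs1 at -0.56 (adjusted p = 0.047) and -0.6 (adjusted p = 0.0096), and the phospholipid transfer protein gene Pltp, the member of the p53 list, at -0.74 (adjusted p = 0.033). The nuclear receptor genes Ppara and Rxra, the iron-regulatory aconitase gene Aco1 and the plasma peroxidase gene Gpx3 were lower by the test with changes of -0.64, -0.59, -0.57 and -1.7 (adjusted p = 0.042, 0.019, 0.014 and 0.039). Rbp4 lost the call without C2 (adjusted p = 0.066). Socs2 lost the call without E2 (adjusted p = 0.15). Gars, Sep15, Gstp2, Acox2, Abcb4, Slc25a15 and Icam1 lost the call without C1 or C2 or E2 (adjusted p of 0.062 to 0.43). Ahr lost the call without C1 or E1 or E2 (adjusted p of 0.12 to 0.39). Uqcrfs1 and Rxra lost the call without C1 or E2 and with library totals (adjusted p of 0.15 to 0.26). Ephx1 lost the call without C2 or E1 or E2 (adjusted p of 0.064 to 0.32). Eprs, Sepp1, Kynu, Itih2 and Mbl2 lost the call without any 1 of the 4 libraries (adjusted p of 0.058 to 0.27). Eif4ebp2 and Pltp lost the call without C1 or C2 or E2 and with library totals (adjusted p of 0.081 to 0.49). Gpx3, Mrpl14, Ppara and Aco1 lost the call without any 1 of the 4 libraries and with library totals (adjusted p of 0.055 to 0.39).

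**Figure D4:**
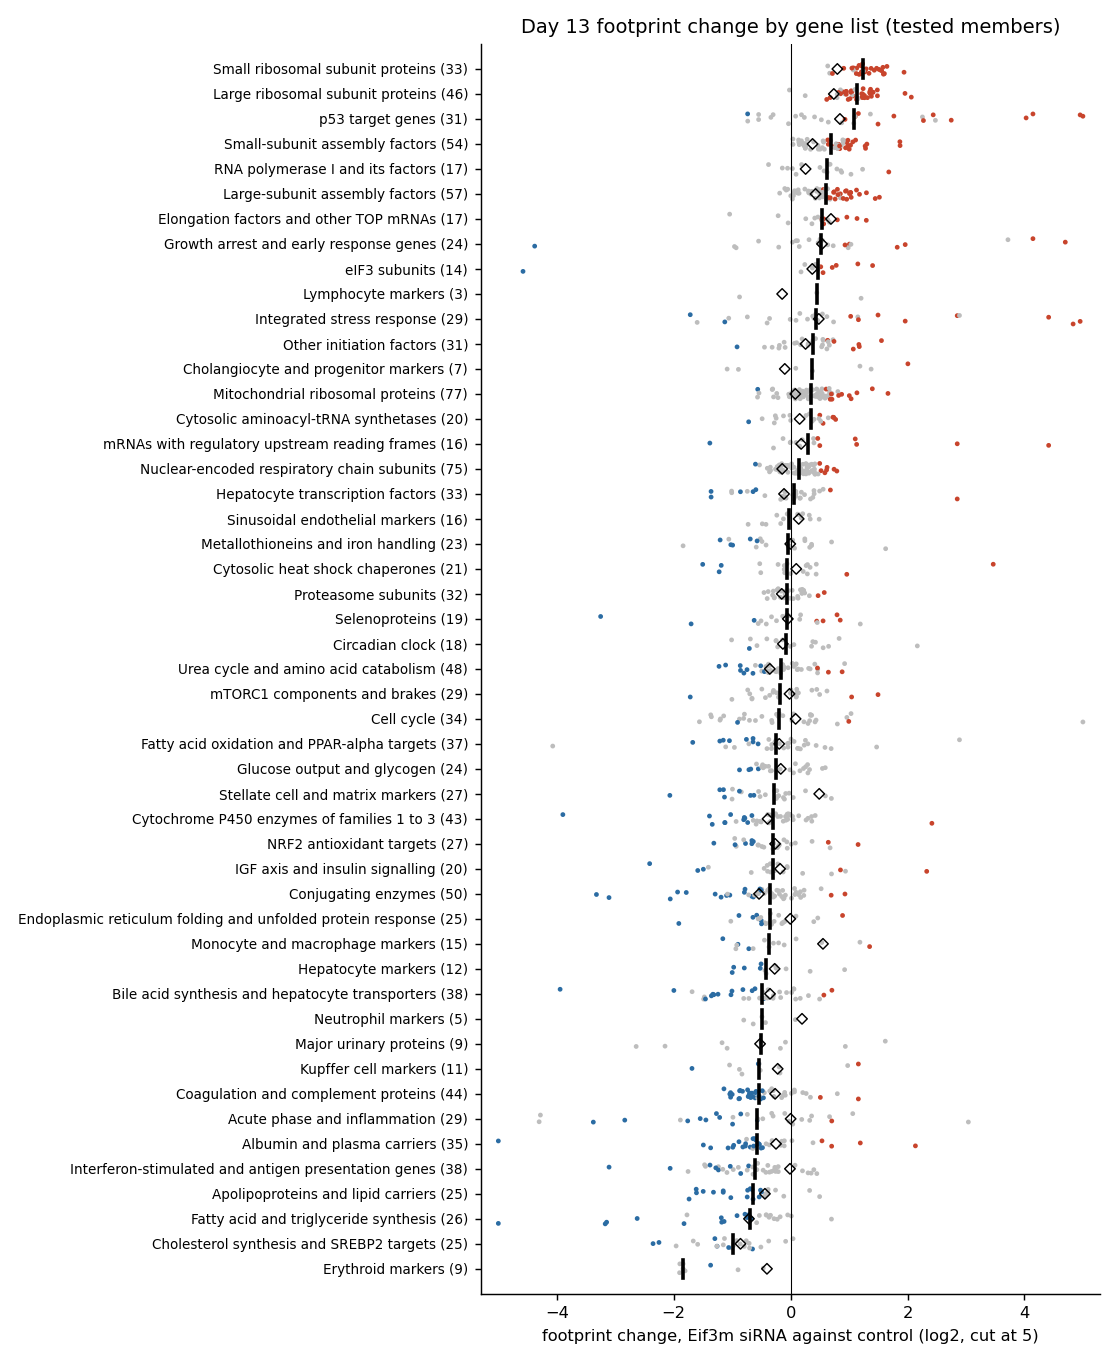
Footprint change (log2, Eif3m siRNA against control at day 13) of the tested members of each of the 49 gene lists, ordered by median, with the number of tested members in brackets. Grey points were not called, red were called higher and blue lower, the black bar is the median and the open diamond the median of the same genes at day 9; ribosomal proteins lead at medians of 1.24 and 1.14, and lipid synthesis and secreted protein lists lie at the bottom beside the erythroid list.

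The libraries read as liver, and hepatocyte markers were all present. They summed to 262816 to 267639 CPM in the controls and 138313 to 170055 CPM with Eif3m siRNA. Most of that sum was albumin, at 18.5% of footprints in each control and 13.0% and 10.4% in E1 and E2. The whole list took 23.4% and 23.2% in C1 and C2 and 18.2% and 15.5% in E1 and E2. Of 12 markers 5 were called lower, among them the P450 gene Cyp2e1 (-0.79) and the receptor gene Asgr1 (-0.52). Summed levels of the marker lists of other cell types differed by type, and each sum follows its most read members. Their calls stand beside 6.12% higher and 6.26% lower over all tested genes. Sinusoidal endothelial markers summed to 1036 to 1040.3 CPM in the controls and 1010.3 to 1074 CPM with Eif3m siRNA, with 0 calls of 16 and a median of -0.03 (0.29 with library totals), and the scavenger receptor gene Stab2 and the growth factor receptor gene Kdr at -0.24 and 0.14. Kupffer cell markers summed to 537 to 551 CPM in the controls and 354 to 374 CPM with Eif3m siRNA, with 1 higher and 2 lower of 11. Clec4f, a lectin found in the mouse on Kupffer cells, fell from 75.4 and 111 to 30.9 and 27.7 CPM, a change of -1.69 (SE 0.21, adjusted p = 2.4e-05), whereas C6, the complement component, rose by 1.16 (adjusted p = 0.0048) and Cd5l changed by -0.55. Monocyte and macrophage markers summed to 415 to 461 CPM in the controls and 306 to 422 CPM with Eif3m siRNA, with 1 higher and 3 lower of 15: Csf1r, Lyz2 and Adgre1 changed by -0.9, -0.72 and -1.16, and the integrin gene Itgam rose from 17.4 and 21.8 to 51.5 and 49.3 CPM (log2 change 1.35, adjusted p = 0.00024). Stellate cell and matrix markers summed to 7382 to 7503 CPM in the controls and 4585 to 5184 CPM with Eif3m siRNA, with 7 lower and 0 higher of 27 (median -0.28, 0.05 with library totals; 5, 5, 6 and 3 lower without C1, C2, E1 and E2). Col1a1, the main chain of fibrillar collagen, fell from 99.8 and 108 to 28.6 and 22.6 CPM, a change of -2.07 (SE 0.22, adjusted p = 5.6e-06), and Col1a2 and Col3a1 fell from 115 and 107 to 60.1 and 43.1 CPM (log2 change -1.15, adjusted p = 0.00047) and from 202 and 206 to 111 and 78.3 CPM (log2 change -1.13, adjusted p = 0.00047), and Col6a1 changed by -1.21. For these matrix genes, the part of fewer or less active stellate cells was not tested. Calls with library totals were 1 higher and 3 lower for hepatocyte, 3 higher and 0 lower for endothelial, 1 higher and 1 lower for Kupffer cell, 2 higher and 1 lower for monocyte and macrophage and 1 higher and 4 lower for stellate and matrix markers. Csf1r lost the call without E2 (adjusted p = 0.22). Cyp2e1 and C6 lost the call without C1 or E2 (adjusted p of 0.058 to 0.12). Col6a1 lost the call without C2 or E2 (adjusted p = 0.17 and 0.43). Adgre1 lost the call without C1 or C2 or E2 and with library totals (adjusted p of 0.1 to 0.52). Asgr1 lost the call without C2 or E1 or E2 and with library totals (adjusted p of 0.14 to 0.37). Cd5l and Lyz2 lost the call without any 1 of the 4 libraries and with library totals (adjusted p of 0.069 to 0.33).

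Erythroid markers set C1 apart from the other libraries: they took 0.48% of its footprints against 0.152% in C2, 0.141% in E1 and 0.0826% in E2, with Epb42 at 0 in all 4. Their median change of -1.83 came with 1 call of 9, the heme synthesis gene Alas2 at -1.37, and 0, 7, 0 and 0 lower calls without C1, C2, E1 and E2. Globin RNA in whole liver comes with blood, and its part in the other results was not tested. Cholangiocyte and progenitor markers summed to 55.7 to 62.3 CPM in the controls and 82.6 to 100.2 CPM with Eif3m siRNA. Of these 12 genes 7 were tested, with 1 called higher, 0 lower and a median of 0.37 (0.11 without E2). Fitted changes lay above 0 in 5 of the 7 and below 0 in 2. The called gene, the progenitor factor gene Sox9, rose from 3.48 and 2.66 to 8.59 and 14.2 CPM (log2 change 2.01, adjusted p = 0.0022). Neutrophil markers summed to 16.2 to 16.5 CPM in the controls and 12 CPM in both livers with Eif3m siRNA with Mpo and Elane at 0, 5 of 13 tested and 0 called, Mmp9 at -0.8 and Ly6g at -0.43; lymphocyte markers summed to 1.6 to 2.32 CPM in the controls and 2.05 to 4.01 CPM with Eif3m siRNA, 3 of 21 tested and 0 called, Cd4 at -0.87 and Gzma at 1.21. Both white cell lists lay near the floor of these libraries. With library totals, erythroid markers gave 0 higher and 0 lower, cholangiocyte markers 2 higher and 0 lower, neutrophil markers 0 higher and 0 lower and lymphocyte markers 0 higher and 0 lower calls. Sox9 lost the call without E2 (adjusted p = 0.14). Alas2 lost the call without C1 or E1 or E2 and with library totals (adjusted p of 0.068 to 0.73).

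The day 9 livers of the series, 3 controls and 3 with Eif3m siRNA from other animals, allowed the day 13 change to be set against an earlier one. At day 9, 1800 of the 12213 genes were called (14.7%; 6.84% higher and 7.9% lower). Of the 1513 day 13 calls, 753 were called in the same direction at day 9, which is 49.8% of the day 13 and 41.8% of the day 9 calls, and 21 in the opposite direction. The test of the difference between the days called 100 genes (0.819%), 27 with a higher (0.221%) and 73 with a lower (0.598%) change at day 13, and 75 of the 100 were also called at day 13. This number ran from 7 without E2 to 172 without Eif3m siRNA replicate 1 of day 9, and was 43 without C1, 24 without C2 and 65 without E1. Leaving out another day 9 library gave 52 (control replicate 2), 59 (Eif3m siRNA replicate 3), 67 (control replicate 1), 85 (control replicate 3) and 143 (Eif3m siRNA replicate 2), and of 27 named genes 4 were called in every setting, namely Col1a1, Col3a1, Col1a2 and Lyz2. All others lost the call at least without E2. Day and animal cohort cannot be told apart here, since each day had its own animals.

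The fitted changes of matrix genes had opposite signs on the 2 days. Col1a1 was at 15.9, 9.65 and 11.4 CPM in the day 9 controls and 37.4, 29.9 and 28.5 CPM with Eif3m siRNA, a change of 1.37 there and of -2.07 at day 13 (difference -3.44, adjusted p = 1.4e-06). Col3a1 changed by 1.15 at day 9 and -1.13 at day 13 (difference -2.28, adjusted p = 3.6e-05), Col1a2 by 0.81 at day 9 and -1.15 at day 13 (difference -1.96, adjusted p = 0.00032) and Col6a1 by 0.53 at day 9 and -1.21 at day 13 (difference -1.74, adjusted p = 0.027). The Eif3m siRNA livers read Col1a1 at a like level on both days, with 28.6 and 22.6 CPM at day 13, whereas the day 13 controls stood at 99.8 and 108 CPM, well above the day 9 controls. Col3a1 and Col1a2 showed the same layout: at day 9 the controls were at 37.4 to 50.6 and 29.8 to 38.8 CPM and the Eif3m siRNA livers at 85.2 to 107 and 52.5 to 64.5 CPM. At day 13 the controls were at 202 and 206 and at 115 and 107 CPM and the Eif3m siRNA livers at 111 and 78.3 and at 60.1 and 43.1 CPM. The change of sign in these 3 genes thus went with a difference between the control cohorts of the days, and it was not shown that the effect of the siRNA turned. Of the 27 stellate and matrix markers, 11 were called higher and 0 lower at day 9, and 9 had a lower change at day 13 by the test of the difference. The antigen presentation and macrophage genes H2-Ab1 and Lyz2 changed by 0.46 at day 9 and -1.28 at day 13 (difference -1.74, adjusted p = 0.01) and by 1.55 at day 9 and -0.72 at day 13 (difference -2.27, adjusted p = 3.6e-05). Lyz2 stood at 21.8 to 30.2 CPM in the day 9 controls and 72.5 and 72.4 CPM in those of day 13, against 68.8 to 86.8 and 43.5 and 44.6 CPM with Eif3m siRNA. In these genes the fitted change was above 0 at day 9 and below 0 at day 13. Serpina12, an inhibitor gene of the vaspin type, was at -0.13 at day 9 and fell from 126 and 84.2 to 14.3 and 11.2 CPM at day 13 (log2 change -3.1, adjusted p = 3.6e-05; difference -2.97, adjusted p = 0.0035). Slc22a26, Apoa5 and Dnajb9 had lower changes at day 13, with differences of -2.26, -1.15 and -1.91. Higher at day 13 were the stress genes Gdf15, with 1.65 at day 9 and 4.95 at day 13 (difference 3.3, adjusted p = 0.041), and Gadd45a, with 1.84 at day 9 and 4.15 at day 13 (difference 2.31, adjusted p = 0.015). The immediate early genes Junb and Plk2 and the Notch target Hes1 changed by -0.22 at day 9 and 1.82 at day 13 (difference 2.04, adjusted p = 0.045), by 0.65 at day 9 and 2.44 at day 13 (difference 1.79, adjusted p = 0.022) and by -0.63 at day 9 and 1.15 at day 13 (difference 1.78, adjusted p = 0.0081). Large changes shared by both days were those of Eif3m (-3.61 and -4.58), Cdkn1a (5.15 and 5.53) and Ifrd1 (3.69 and 4.7), whose differences were not called. A1bg changed by -0.75 at day 9 and -5.88 at day 13, an unequal pair whose difference had an adjusted p of 0.056. Hes1 lost the day 13 call without C2 or E2 (adjusted p = 0.15 and 0.067). Of the differences printed, that of Gdf15 lost its call in 7, that of Junb in 8, that of Col6a1 in 6, that of Slc22a26 in 6, that of Apoa5 in 6, that of Plk2 in 5, that of Gadd45a in 3, that of H2-Ab1 in 2, that of Hes1 in 2, that of Dnajb9 in 2 and that of Serpina12 in 1 of 15 settings, with adjusted p up to 0.36 for Gdf15, 0.41 for Junb and 0.46 for Col6a1. Ribosomal protein medians were 0.74 and 0.8 at day 9 for the large and small subunit and 1.14 and 1.24 at day 13, and the test of the difference called 0 of 46 and 1 of 33 of these genes.

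**Figure D5:**
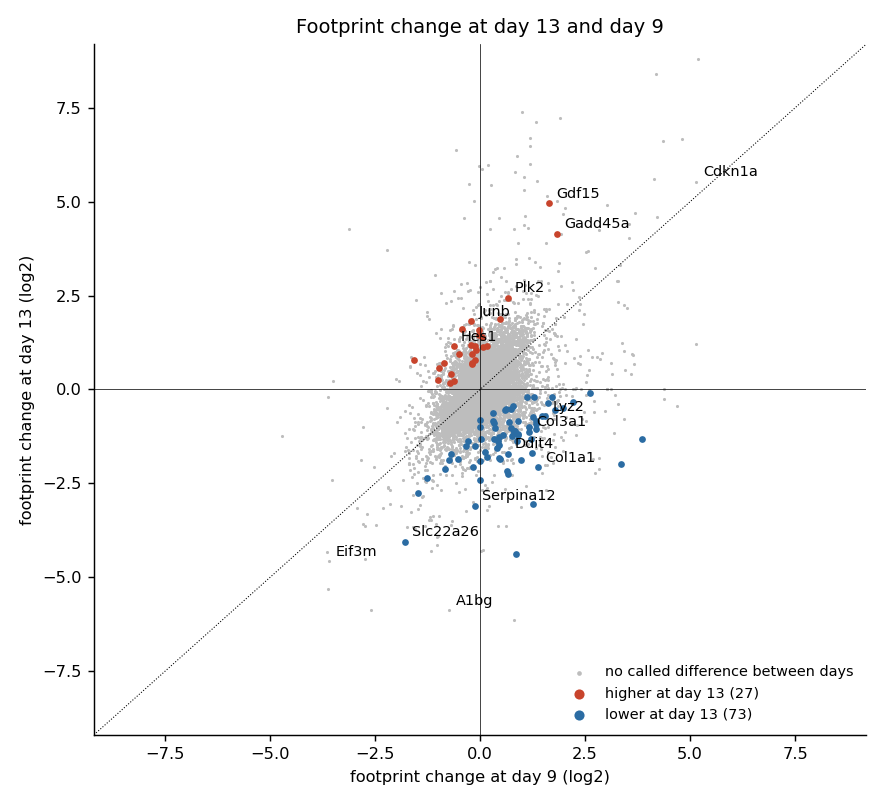
Footprint change (log2, Eif3m siRNA against control) at day 9 on the horizontal axis and at day 13 on the vertical axis for the tested genes, with the dotted line marking equal changes. Red points (27) had a higher and blue points (73) a lower change at day 13 by the test of the difference; Col1a1 at 1.37 and -2.07 lies at the lower right, and Cdkn1a at 5.15 and 5.53 near the line.

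RNA libraries of the same 4 livers held 26.4 M, 24.3 M, 19.8 M and 4.96 M counts for C1, C2, E1 and E2 and gave 2625 calls of 16444 genes (16%; 6.09% higher and 9.87% lower). They were made with another kit, and some transcripts were nearly missing from them, so that an RNA value near the floor says little. RNA of Eif3m changed by -4.01 (adjusted p = 9.6e-07), beside -4.58 for footprints. RNA medians of the large and small ribosomal protein genes were 0.99 and 1.09, beside 1.14 and 1.24 for footprints, and RNA of Alb and Col1a1 changed by -0.76 and -2.1 beside -0.97 and -2.07. Fasn and A1bg had RNA changes of -2.65 and -5.73 beside footprint changes of -2.63 and -5.88. Cdkn1a RNA, at 0.82 (adjusted p = 0.81), and Srxn1 RNA, at -5.67, were read at 0.0238 and 0.214 CPM on average in the control livers and 0.094 and 0 CPM with Eif3m siRNA. The test of footprint change against RNA change called 3 of 14236 genes (0.0211%), 1 with higher (0.00702%) and 2 with lower footprints (0.014%), while 1425 had an unadjusted p below 0.05. It called 12 with the animal as a block, which pairs the libraries of a liver, and 796 without RNA library C2, and 0 without RNA library E2 or footprint library E1 or E2, so that 1 library decided the number. The remaining omissions gave 1 without footprint library C1 or C2, 20 without RNA library C1 and 6 without RNA library E1. Farsa was higher in footprints than in RNA by 2.07 (SE 0.36, adjusted p = 0.03), with footprints at 0.77 and RNA at -1.38, a call that was lost without 5 of the 8 libraries in turn (adjusted p up to 0.24). Gas5, a noncoding host of small nucleolar RNAs, and Pabpc1, the poly(A)-binding protein, were lower in footprints than in RNA, with differences of -2.22 and -2.14, picked after their values were seen. Their footprints changed by 0.67 and -1.04 and their RNA by 2.81 and 1.01. With this few calls at this depth, a difference between footprint and RNA change was detectable in hardly any gene, which does not show that the changes were equal.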

How the data were processed

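Footprint libraries (ART-seq kit) were made from ground whole liver, 2 per group at day 13, each from its own animal. The table deposited by the authors gives expected counts per gene, 44.3% of the values above 0 in the 4 libraries not being whole. Cutadapt, Bowtie and Bowtie2 are named in the submitters' processing notes; versions, genome build, counting rule and strand setting were not given in the sources used here, so overlapping, antisense and near-identical genes cannot be told apart. Every column belonged to a sample, with 0 others.

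Expected counts were rounded. Genes passing filterByExpr in edgeR 4.0.16 (limma 3.58.1, R 4.3.3) were fitted with TMM factors and robust quasi-likelihood over the 10 footprint libraries of both days, with day and siRNA as 1 group factor; contrasts gave the change at day 13, that at day 9 and their difference. RNA was fitted over all RNA libraries, and footprints against RNA by an interaction over both assays. p-values were adjusted by Benjamini-Hochberg over all tested genes, with a threshold of 0.05. The scripts were tested on simulated data. CPM are rounded counts per 1000000 of library total times TMM factor. Ratios for groups with 3 or fewer counts have exact 95% intervals covering counting error only.

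The naming rule took the subunits of eIF3, the 10 genes that rose and the 10 that fell most among calls whose groups were apart and whose mean was at least 5 CPM, the 10 genes with the largest control share, 6 per direction of the day and of the RNA difference, and from every list at most 4 calls by size (where it had none, its 2 most read genes); 75 called unnamed gene models were left out. Some genes that the rule gave are not reported here. The members, the 49 lists (1441 genes, 1330 tested) and the naming rule were chosen with earlier results of these data known. Promoter windows came from RefSeq (GRCm38.p6); the 15 motifs were the C/EBP-ATF element TGATGNAA and its form TGATGCAA, the E-box CACGTG, the sterol element TCACNCCAC, the short run TTTCC, the ETS letters CCGGAAGT and their core CGGAAG, the palindrome TCGCGAGA, the HNF1 palindrome, the HNF4 letters CAAAGTCCA, a direct repeat of nuclear receptors, the AP-1 site TGACTCA, the STAT letters TTCNNNGAA and their form TTCCNGGAA, and the TATA box TATAAA. TGATGCAA lies within TGATGNAA, TTCCNGGAA within TTCNNNGAA and CCGGAAGT holds CGGAAG. Coding length was not analysed here. Alternatives were DESeq2 1.42.0, other scaling, other filters, day 13 alone, a replicate block and leaving out each library.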

Additional observations from a re-analysis of the deposited data

Results flagged for a closer look

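The test of the difference between the day 13 and the day 9 footprint effects singled out the following genes, as the log2 change at day 13 minus that at day 9. Collagen and matrix genes had a lower change at day 13: Col1a1 at -3.44, Thbs2 at -2.55, Col3a1 at -2.28, Col1a2 at -1.96 and Col6a1 at -1.74. Macrophage and antigen presentation genes followed with Lyz2 at -2.27, Cd74 at -1.78, H2-Ab1 at -1.74 and Csf1r at -1.22. The heat shock genes were lower at day 13 too, with Hspa1l at -2.38, Hspa1b at -2.13, Hspa1a at -2.09 and Bag3 at -1.39, of which the first 3 are close copies. The stress genes Ddit4 and Dnajb9 had differences of -2.37 and -1.91. Among hepatocyte genes Serpina12 stood at -2.97, Slc22a26 at -2.26 and Apoa5 at -1.15.

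A higher change at day 13 was found for Gdf15 at 3.30, Gadd45a at 2.31, Junb at 2.04, Mettl20 at 2.04, Plk2 at 1.79 and Hes1 at 1.78. Nhp2 stood at 1.41, the complement gene C6 at 1.27 and the complex I gene Ndufb11 at 0.92. Of these 27 differences 4 were called under every setting tried, those of Col1a1, Col3a1, Col1a2 and Lyz2, and the others lost the call at least without E2. Each day had its own animals, and the Col1a1 level of the controls differed between the days.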

How the results depend on the processing

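The footprint change at day 13 gave 429 to 1875 calls when 1 library was left out, the fewest without E2, and 2358 (2007 higher, 351 lower) with library totals in place of the 1513 calls reported. The replicate block gave 1232. By the labels each footprint library is from its own animal, and whether same-numbered libraries shared handling is not stated there. Deviations of same-numbered libraries correlated with r = -0.146, -0.0478 and 0.0356 at day 9, and those of differently numbered ones with -0.107 to 0.131. At day 13 the deviations within a group mirror each other, so that r could only be 0.0746 or -0.0746. These day 13 values cannot decide whether the numbers pair the libraries. DESeq2 called 1247, DESeq2 size factors 1510, the day 13 libraries alone 1891, no filter 1653 and a mean of at least 5 CPM 1535. No gene called in both turned its direction under these settings. The difference between the days gave 7 to 172 calls with 1 library left out, 242 without a filter, 62 with the replicate block, 119 by DESeq2 and 100 with library totals (35 higher, 65 lower) against 27 higher and 73 lower. RNA gave 1336 to 4265 calls with 1 library left out, 2332 under the replicate block and 2518 when scaled to library totals, of which 59.7% against 38.2% were higher. Footprint against RNA change gave 0 to 796 calls with 1 library left out, 12 with the animal as replicate block, 63 with library totals and 4 with TMM over all libraries.

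Of 178 called genes given by the naming rule 71 were called under all of the settings, and 30 lost the call with library totals. Signs turned only among genes not called: with library totals Ahsg was at 0.21, Gc at 0.15, Mup3 at 0.14, Stab2 at 0.083 and Apob at 0.058. With 1 library left out Ahsg ranged from -0.29 to 0.075, Mup3 from -0.49 to 0.23, Mmp9 from -1.3 to 0.023 and Kdr from -0.00253 to 0.31, and the footprint against RNA change of Eif3m from -0.96 to 0.21, all 5 not called. Rpl22l1, level at -0.02, was at 0.31 with library totals, 0.021 by DESeq2 and 0.018 without a filter and ran from -0.33 to 0.399 with 1 library left out, and Asns from -0.015 to 0.72. With library totals 15 of 49 list medians changed sign, and 154 of 833 list medians over all settings moved by more than their spread. Depth is a limit: 3 of the 4 libraries held 1.64 M to 2.12 M footprints (M, 1000000 counts), which limits the precision for genes read at a few CPM. The causes of these shifts were not tested.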
